A study of Drosophila melanogaster with 12 samples.

Results

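Pu (Punch) and pr (purple) encode successive enzymes of pteridine synthesis in Drosophila melanogaster, and their transcripts were followed in heads of flies fed the convulsant pentylenetetrazole (PTZ). The members were chosen by gene symbol in the array annotation, and 2 of 6793 named genes were taken, each represented by 1 feature of 2 adjacent spots among 13824 features. Pu carries the gene number CG9441 and pr the number CG16784. Both genes gave a ratio on 11 of 12 arrays, and both lacked one on replicate 2 of the 7th day.

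Pu encodes GTP cyclohydrolase I, which opens pteridine synthesis from GTP and sets its rate, and pr encodes pyruvoyl-tetrahydropterin synthase, which acts on the product of that enzyme. From this branch point one arm of the pathway leads to drosopterins, the red pigments of the fly eye, and another to tetrahydrobiopterin, the cofactor that tyrosine and tryptophan hydroxylases need to make dopamine and serotonin. In the head the eye pigment cells and the aminergic neurons therefore both draw on these enzymes.

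The flies were Oregon-R males, wild type and unmated, 3 to 4 days old at the start, kept 30 to a vial on normal food (NF) or on food with 8 mg/ml PTZ, which blocks chloride channels gated by GABA. RNA of pooled whole heads, eyes included, was compared within 2-colour cDNA arrays after 12 hrs of feeding and on its 2nd and 7th days, with 4 biological replicates at each time, as the study calls them. PTZ RNA carried Cy5 on replicates 1 and 2 (forward arrays) and Cy3 on replicates 3 and 4 (swapped arrays). An array thus holds 1 NF and 1 PTZ sample, and each value is a log2 ratio between them, not a level of either.

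The sources do not say whether ratios of the swapped arrays had been inverted before deposit, although a legend of the study gives its ratios as red over green, and so the results are given in 2 readings. In the turned reading the sign of the swapped arrays was changed, which gives PTZ over NF if the deposited ratio is Cy5 over Cy3. In the reading as deposited no sign was changed, which gives PTZ over NF if the authors had inverted those arrays. If they had not, the swapped arrays as deposited read NF over PTZ. A deposited mean over both orientations is then one of Cy5 over Cy3, not of PTZ over NF. The forward arrays read PTZ over NF in both cases. The labels contradicted themselves on the treatment or the dye of 3 arrays (replicates 3 and 4 of 12 hrs, and 1 array of the 2nd day, replicate 2), whose orientation was taken from titles, treatment protocols and the stated design.

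Arrays differed in how much they measured and in where they were centred. Between 3088 and 9051 features per array had a ratio, with the fewest on replicates 2 and 4 of the 7th day, and array medians lay between -0.20 and 0.16 except on replicate 4 of the 7th day, where the median was -0.64. Ratios cannot check the tissue by level, but 9 of 12 photoreceptor marker genes on the array were measurable on at least 3 arrays at 12 hrs. The same count was 6 of 6 for muscle, 2 of 2 for neuron and 6 of 9 for head fat body markers. It was 2 of 4 each for retinal pigment cell and glia markers, and 4642 of 13824 over all features. The photoreceptor count thus does not single out eye tissue. In RNA from whole heads, fewer cells of a type and less transcript per cell cannot be told apart.

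Pu, which commits GTP to the pathway, had negative deposited ratios on 10 of the 11 arrays. At 12 hrs the log2 ratios of Pu as deposited were -0.26 and 0.04 on the forward arrays and -0.33 and -0.12 on the swapped arrays. On the 2nd day they were -0.51 and -0.64 on the forward arrays and -0.18 and -0.01 on the swapped arrays. On the 7th day the forward array gave -0.83 and the swapped arrays gave -0.36 and -0.96. The single positive value was that of replicate 2 at 12 hrs, and the forward and swapped arrays of the 2nd day did not overlap, the forward arrays being lower. Ratios on the 7th day reached lower than at the other times, but the lowest of them fell on the array whose median feature was itself at -0.64.

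Set against the other features of each array, Pu lay low on most. It stood at the 1.76 percentile of all measured features on replicate 1 of the 7th day, where the array median was 0.04. It stood at the 7.11 percentile on replicate 1 at 12 hrs and at the 7.02 percentile on replicate 2 of the 2nd day. On 2 arrays, replicate 4 of the 2nd day and replicate 2 of 12 hrs, it lay above the median, at the 56.7 and 56.5 percentiles. Replicate 4 of the 7th day, with the lowest ratio of all, placed Pu at the 11.5 percentile.

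pr, which forms the next intermediate, had smaller ratios and a wider mix of signs. At 12 hrs the log2 ratios of pr as deposited were 0.18 and -0.01 on the forward arrays and -0.18 and -0.02 on the swapped arrays. On the 2nd day they were -0.47 and -0.14 on the forward arrays and -0.15 and 0.20 on the swapped arrays. On the 7th day the forward array gave -0.81 and the swapped arrays gave -0.09 and -0.90. Values of the 2 dye orientations overlapped at each time point except 12 hrs, where both swapped arrays were lower than both forward arrays. The nearest of these, -0.01 forward and -0.02 swapped, lay closer together than their own spots, which differed by 0.272 and 0.159. Only replicate 1 of the 7th day placed pr among the lowest features of its array, at the 1.90 percentile.

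The 2 spots of each gene gave a measure of technical error. They differed by a median of 0.107 on the log2 scale over the 22 array values of the members, against 0.138 over all features, and by at most 0.419, for pr on replicate 1 of the 7th day. For Pu the spots never differed in sign except on replicate 4 of the 2nd day, where they gave 0.002 and -0.013. The spots of pr differed in sign at 12 hrs on replicate 2 (-0.148 and 0.124) and replicate 4 (-0.100 and 0.059). They also did so on replicate 3 of the 7th day (0.018 and -0.197).

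**Figure D1:**
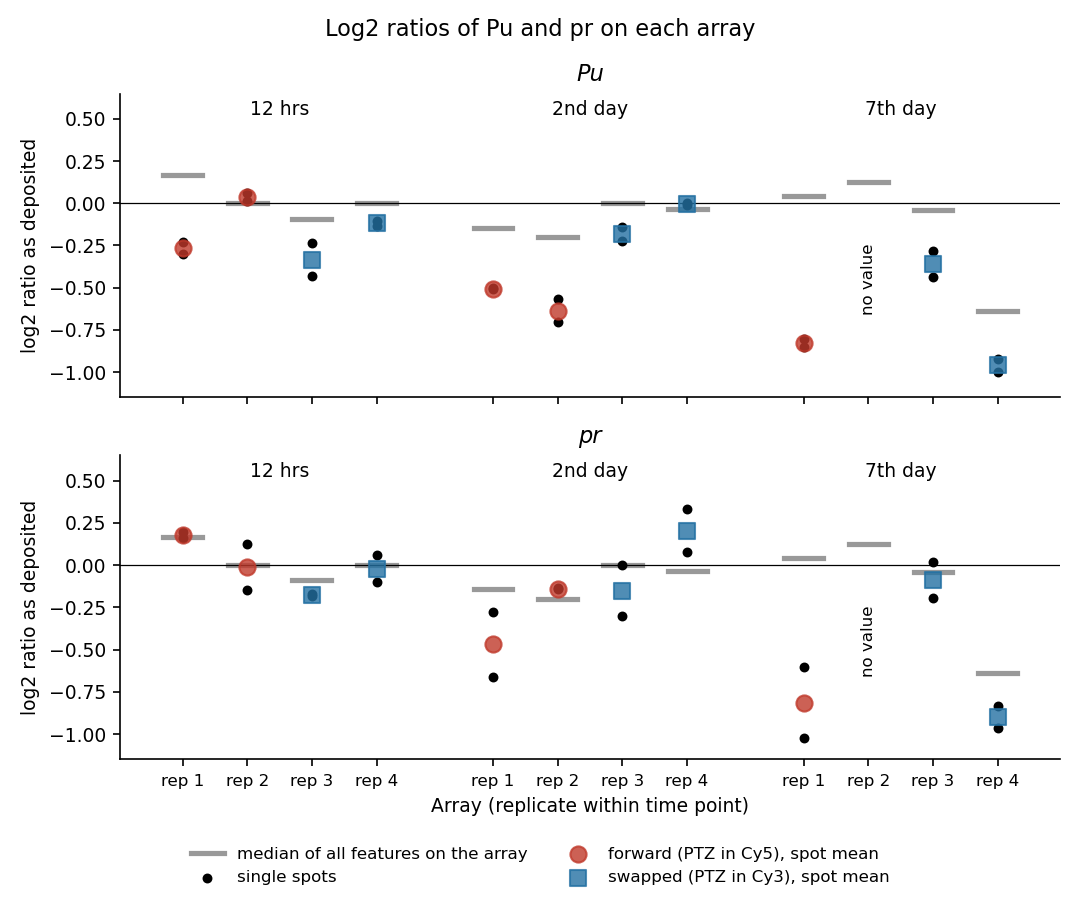
Deposited log2 ratio of Pu (top) and pr (bottom) on each array, in order of time point and replicate, as the mean of 2 spots (large symbols, circles for forward and squares for swapped arrays) with the single spots as black dots and the median of all features of the array as a grey bar. Pu lies below its array median on 9 of 11 arrays, and both genes are lowest on replicates 1 and 4 of the 7th day, the latter with an array median of -0.64.

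The design asks whether PTZ changed the transcripts at each time of feeding. In the turned reading neither gene passed the limma test, with a threshold of 0.05 after Benjamini-Hochberg adjustment, at any time. The mean log2 ratio of Pu was 0.06 ± 0.25 (SD, n = 4) at 12 hrs, with an adjusted p of 0.802. It was -0.24 ± 0.40 (SD, n = 4) on the 2nd day, with an adjusted p of 0.583, and 0.16 ± 0.91 (SD, n = 3) on the 7th day, with an adjusted p of 0.964. The signs of the forward and swapped arrays opposed each other on the 2nd and 7th days in this reading, which left means smaller than their spread. For pr the means were 0.09 ± 0.10 at 12 hrs, -0.17 ± 0.25 on day 2 (SD, n = 4 each) and 0.06 ± 0.86 on day 7 (SD, n = 3), with adjusted p of 0.589, 0.640 and 0.981. These 0 calls stand beside 0% of 4642, 5279 and 4316 features called lower or higher at the 3 times.

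As deposited the means of Pu were negative at each time and most negative on the 7th day. Mean log2 ratios were -0.17 ± 0.16 at 12 hrs, -0.33 ± 0.29 on the 2nd day (SD, n = 4 each) and -0.72 ± 0.32 on the 7th day (SD, n = 3). The limma adjusted p were 0.997, 0.204 and 0.201, so that no time point alone passed, although the unadjusted p were 0.0239 and 0.00378 on the 2nd and 7th days. An unadjusted p under 0.05 with a lower ratio was given by 17.8% of features on the 2nd day and by 9.06% on the 7th. Features past the adjusted threshold and lower made up 0%, 0.0189% and 0.626% at the 3 times. pr gave -0.01 ± 0.15, -0.14 ± 0.28 (SD, n = 4 each) and -0.60 ± 0.45 (SD, n = 3), with adjusted p of 0.997, 0.501 and 0.374.

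By rank of the mean as deposited, Pu was among the lower features at each time. There were 432 of 4642 features with a lower mean at 12 hrs, 496 of 5279 on the 2nd day and 68 of 4316 on the 7th day, or 9.31%, 9.40% and 1.58%. The corresponding shares for pr were 47.7%, 42.5% and 3.27%. In this reading both genes stood in the lower tail of the means on the 7th day, and pr lay near the middle before. With each array centred on its median, the shares of the 7th day as deposited were 2.20% for Pu and 4.82% for pr. With the median of the features nearest in number subtracted instead, they were 3.0% for Pu and 25.9% for pr. The place of pr in the lower tail thus did not hold after that subtraction, while that of Pu did. Turned, the shares of features with a lower mean were 47.5%, 15.7% and 51.9% for Pu and 55.3%, 28.8% and 29.5% for pr, so that Pu lay near the middle at 12 hrs and on the 7th day.

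**Figure D2:**
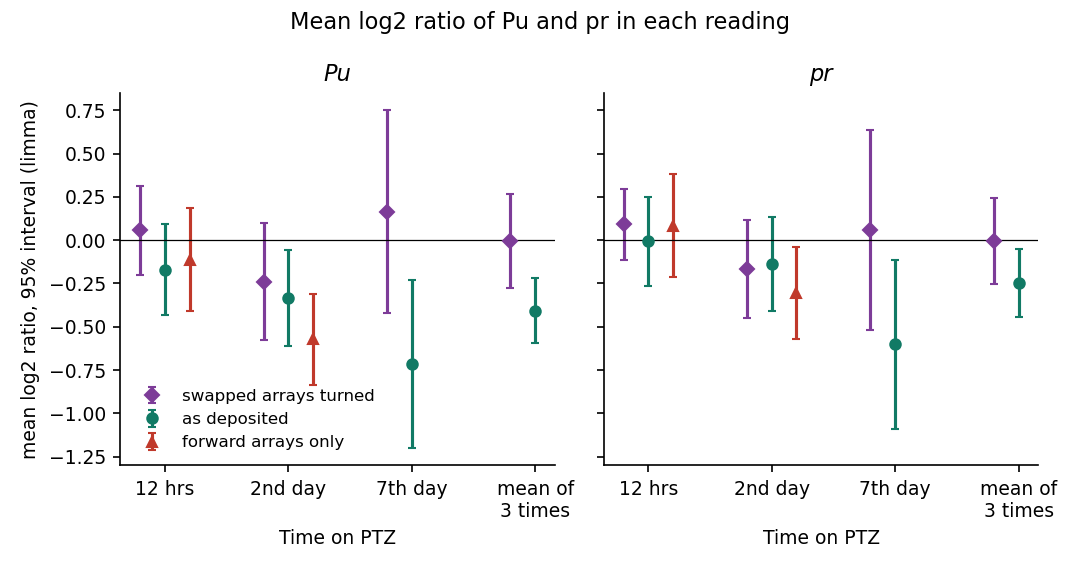
Mean log2 ratio with its 95% limma interval for Pu (left) and pr (right) at each time point and as the mean over the 3 time points, in the turned reading (diamonds), as deposited (circles) and on the forward arrays alone (triangles, not given for the 7th day with 1 array). For Pu the means as deposited run from -0.17 at 12 hrs to -0.72 on the 7th day, while those of the turned reading lie between -0.24 and 0.16.

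The forward arrays read PTZ over NF whichever way the swapped arrays are taken, but keep any effect of the dyes. On the 2nd day Pu was lower on PTZ on both forward arrays, at -0.57 ± 0.09 (SD, n = 2, limma adjusted p = 0.000187, with the spread pooled over features). Of these arrays, replicate 2 had labels that contradicted themselves on the treatment or the dye. Over both forward arrays 33.3% of 4964 features were called lower, and the median feature lay at -0.20. With each array centred on its median the value for Pu was -0.40 (adjusted p = 0.0124), and 15.1% of features were called lower. With the median of the 40 features nearest in number subtracted it was -0.31 (adjusted p = 0.0831), beside 5.74% called lower, and the call was lost. pr averaged -0.30 ± 0.23 (SD, n = 2) on the same arrays, with an adjusted p of 0.0563. At 12 hrs the forward means were -0.11 for Pu (adjusted p = 0.725) and 0.08 for pr (adjusted p = 0.798), where 1.3% of 3938 features were called lower.

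The swapped arrays alone gave deposited means for Pu (n = 2 each) of -0.23, -0.09 and -0.66 at 12 hrs, the 2nd day and the 7th day, with limma adjusted p of 0.598, 0.978 and 0.576. Forward minus swapped, as deposited, is a test of the turned mean with a dye effect in the model. For Pu this difference was -0.48 on the 2nd day (adjusted p = 0.0455), beside 14.1% of features called lower, and -0.32 with arrays centred (adjusted p = 0.223). With the swapped arrays as deposited and a dye effect in the model, the mean of -0.33 also passed (adjusted p = 0.00380), beside 23.5% called lower. The difference between orientations was 0.11 at 12 hrs (adjusted p = 0.754) and -0.17 on the 7th day (adjusted p = 1.00). A dye effect in the model thus brought Pu past the threshold on the 2nd day only, in a comparison that called many features and whose turned form did not hold after centring. For pr the differences were 0.18, -0.33 and -0.32, with adjusted p of 0.564, 0.193 and 1.00.

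All arrays then entered 1 fit. Over the 3 time points the mean of Pu as deposited was -0.41 (SE 0.09, limma adjusted p = 0.0181), and 28 of 2079 features had a lower mean. Features called lower there made up 1.88%. The call held with arrays centred (-0.31, adjusted p = 0.0460, 1.54% called lower) and with the local median subtracted (-0.29, adjusted p = 0.0412, 2.21% called lower). It was lost without any one of 4 arrays, namely replicate 1 of the 2nd day (adjusted p = 0.0557), replicate 2 of the 2nd day (0.0697), replicate 1 of the 7th day (0.0708) and replicate 4 of the 7th day (0.0597), with means between -0.39 and -0.37. In the turned reading the mean of Pu was -0.01 (SE 0.13, adjusted p = 0.990), and 0% of features were called. The lower ratio of Pu over all arrays therefore rests on the reading as deposited.

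pr had a mean of -0.25 as deposited (SE 0.09, adjusted p = 0.127), which passed the threshold only without replicate 3 of the 7th day (-0.33, adjusted p = 0.0398). Its turned mean was -0.01 (SE 0.12, adjusted p = 0.991).

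An exact sign-flip permutation test over the arrays of each gene, 2-sided, takes each array as independent and needs no other feature. Pu as deposited averaged -0.38 ± 0.33 (SD, n = 11) and was negative on 10 of 11 arrays (exact p = 0.00293, 0.0258 after Benjamini-Hochberg adjustment over 22 such tests). At least 10 negative values were found for 6.58% of 1749 features measured on 11 or more arrays. With the local median subtracted Pu was again negative on 10 of 11 arrays, at -0.27 ± 0.25 (SD, n = 11, exact p = 0.00293), where 5.22% of features reached that number. As deposited, with no median subtracted, Pu averaged -0.25 ± 0.24 without the 7th day (SD, n = 8, exact p = 0.0234). The turned mean was -0.02 ± 0.51 (SD, n = 11), with 4 negative arrays and 7 positive (exact p = 0.896). For pr the mean as deposited was -0.22 ± 0.37 (SD, n = 11) with 9 negative arrays (exact p = 0.0791), a count reached by 19.7% of features, and the turned mean was -0.01 ± 0.43 (exact p = 0.935).

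Before any centring the swapped arrays had 1 sign for Pu at all times. As deposited they were negative on 6 of 6, between -0.96 and -0.01, and the exact sign-flip p of 0.0312 is the smallest that 6 arrays allow. With arrays centred 5 of the 6 were negative (exact sign-flip p = 0.0625). Subtracting the local median also left 5 of 6 negative (exact sign-flip p = 0.0625). The forward arrays were negative on 4 of 5, at -0.44 ± 0.34 (SD, n = 5, exact p = 0.125, where 0.0625 is the smallest possible). Pu therefore leaned the same way in both dye orientations as deposited, and its opposite lean when turned follows from the change of sign. If the swapped arrays had not been inverted before deposit, the shared lean is one of Cy5 over Cy3. It is then not one of PTZ over NF, and which case holds was not tested.

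The time points were compared in 1 limma fit over the arrays, and neither gene passed the threshold for any pair of them in either reading. As deposited Pu was lower on the 7th day than at 12 hrs by 0.55 (SE 0.23, adjusted p = 0.286), where 0.722% of 2079 features were called lower. The corresponding fall of pr was 0.60 (SE 0.24, adjusted p = 0.276). From the 2nd to the 7th day the differences were -0.38 for Pu and -0.46 for pr (adjusted p = 0.602 and 0.551), beside 0.0481% called lower. Turned, the same 2 contrasts were 0.11 and 0.40 for Pu, with adjusted p of 0.989 and 0.511, and -0.03 and 0.22 for pr, with 0.989 and 0.646. Only without replicate 1 of the 7th day did a turned contrast pass, that of Pu between the 7th and 2nd days (0.90, adjusted p = 0.0396).

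Pu and pr were next compared on the same array, a test added after their values were seen. As deposited Pu was the lower of the pair on 10 of 11 arrays, by a mean of 0.16 ± 0.18 (SD, n = 11, exact sign-flip p = 0.00488, 0.0258 adjusted). The exception was replicate 2 at 12 hrs. Turned, the mean difference was -0.01 ± 0.25 (SD, n = 11, exact p = 0.893), with Pu lower on 4 arrays and higher on 7. The difference is between ratios of 2 different features and says nothing of the level of either transcript.

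Across the arrays the 2 ratios varied together. Over 11 arrays as deposited Pearson's r was 0.872 (permutation p = 0.00074) and Spearman's rho was 0.809 (permutation p = 0.00406), with adjusted p of 0.00444 and 0.0487 over 12 such relations. Turned, r was 0.879 (permutation p = 0.00061) and rho 0.745 (permutation p = 0.0106, adjusted 0.0638). Without the 2 arrays farthest from the median of Pu, r was 0.615 as deposited and 0.638 turned. Within the 6 swapped arrays r was 0.973 (exact permutation p = 0.00833) and rho 0.829 (exact permutation p = 0.0583), and r was 0.512 with 4 arrays left. No coefficient was computed over the 5 forward arrays with both values. With each array centred on its median, r over 11 arrays was 0.785 as deposited and 0.773 turned. Centred rho was 0.35 as deposited (permutation p = 0.286) and 0.70 turned (permutation p = 0.0206). Without the 2 farthest arrays the centred r was 0.434 as deposited and 0.667 turned.

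Much of this likeness was shared by other features. The median r of 3680 features with Pu was 0.553 when turned and 0.431 as deposited, and 287 and 94 features, or 7.80% and 2.55%, were more like Pu than pr was. When the median of the features nearest in number was subtracted, r between the 2 genes was 0.561 as deposited (permutation p = 0.0759) and 0.491 turned (permutation p = 0.122), and without the 2 farthest arrays it was 0.147 and -0.04. The relation thus did not hold once the median of features nearby in number had been removed.

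**Figure D3:**
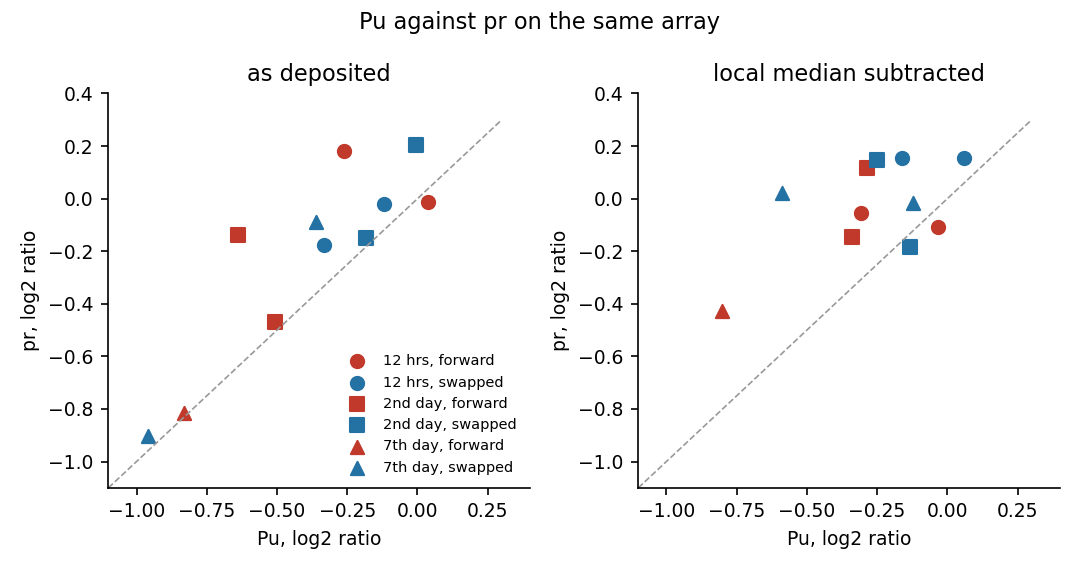
Log2 ratio of pr against that of Pu on each of 11 arrays, as deposited (left) and after subtraction of the median of the 40 features nearest in number (right), with colour for dye orientation, symbol for time point and a dashed line of equality. On the left 10 of 11 points lie above the line and r is 0.872, and on the right r is 0.561.

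The features most like each gene were chosen as the 3 named ones with the highest r over at least 9 shared arrays, turned and with arrays centred. For Pu they were CG9259 (r = 0.960, 9 arrays), sky (0.953, 10 arrays), which encodes a GTPase-activating protein of synaptic vesicle traffic, and NTPase (0.947, 11 arrays). For pr they were CG7997 (r = 0.959, 10 arrays), Nlg2 (0.928, 10 arrays), a neuroligin, and CG7768 (0.925, 11 arrays). No p was computed, since each was picked as the highest of many. The neighbours changed with the reading, since as deposited and centred the highest r were those of Galphaq with Pu (0.958, 9 arrays), the photoreceptor G protein subunit, and of EcR with pr (0.951, 10 arrays), the ecdysone receptor.

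Of 14 genes listed for pteridine and tetrahydrobiopterin synthesis, 11 were on the array under their names, and most were measured on few arrays. Those with a ratio on at least 3 arrays numbered 4 at 12 hrs and 5 at each later time, with Pu and pr among them each time. In both readings 0 of them passed the limma test in either direction. The list's median in the turned reading was 0.07, 0.07 and 0.15 at the 3 times, beside 0.07, -0.08 and 0.16 over all features. As deposited it was -0.04, -0.12 and -0.23, beside 0.00, -0.10 and -0.13.

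Beyond the branch point, on the pigment arm, se (sepia) encodes the glutathione-dependent enzyme that makes the pyrimidodiazepine precursor of drosopterin. Its deposited log2 ratios at 12 hrs were 0.14 and 0.12 on the forward arrays and -0.06 and -0.05 on the swapped arrays. On the 2nd day they were 0.26 and 0.29 forward and 0.05 and 0.12 swapped, and on the 7th day 0.26 forward and 0.08 swapped. The forward arrays thus gave 5 positive values for se, on the same arrays where Pu was negative on 4 of 5. Neither 12 hrs nor the 2nd day passed the limma test, and the 7th day, with 2 values, was not tested. The mean of se was 0.12 ± 0.12 (SD, n = 10, 8 positive) as deposited, with an exact sign-flip p of 0.0156 (0.0491 adjusted) in a test added after its values were seen. It was 0.05 with the local median subtracted (exact p = 0.242) and 0.09 ± 0.15 (SD, n = 10) turned (exact p = 0.0820).

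cl (clot), which encodes a thioredoxin-like protein also needed for drosopterin, was on the array as 2 features, whose agreement in sign depended on the reading. On the feature measured on more arrays the turned means were -0.09 at 12 hrs and 0.07 on the 2nd day, with adjusted p of 0.610 and 0.818, and the deposited means were -0.08 and -0.12. The other feature gave a turned mean of 0.20 at 12 hrs and 0.04 on the 7th day, with adjusted p of 0.516 and 0.987, and deposited means of -0.05 and -0.35 (n = 3 each). At 12 hrs the features thus differed in sign when turned and had the same sign as deposited.

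On the tetrahydrobiopterin arm, Dhpr encodes dihydropteridine reductase, which regenerates the cofactor after each hydroxylation. Its turned means were 0.09 and 0.28 at the later times (n = 3 each), with limma adjusted p of 0.834 and 0.964, and its deposited means were 0.16 and -0.23. The molybdenum enzyme xanthine dehydrogenase, encoded by ry (rosy), and the cofactor sulfurase of mal (maroon-like), which it requires, act on pteridine side products. They were testable on the 7th day, where their turned means were 0.04 and 0.15, with adjusted p of 0.987 and 0.964, and their deposited means -0.14 and 0.26. Sptr, whose product sepiapterin reductase completes tetrahydrobiopterin, had 3 values in all, DhpD 6, Pcd 2 and bw 3. No direction is given for these 4 genes.

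**Figure D4:**
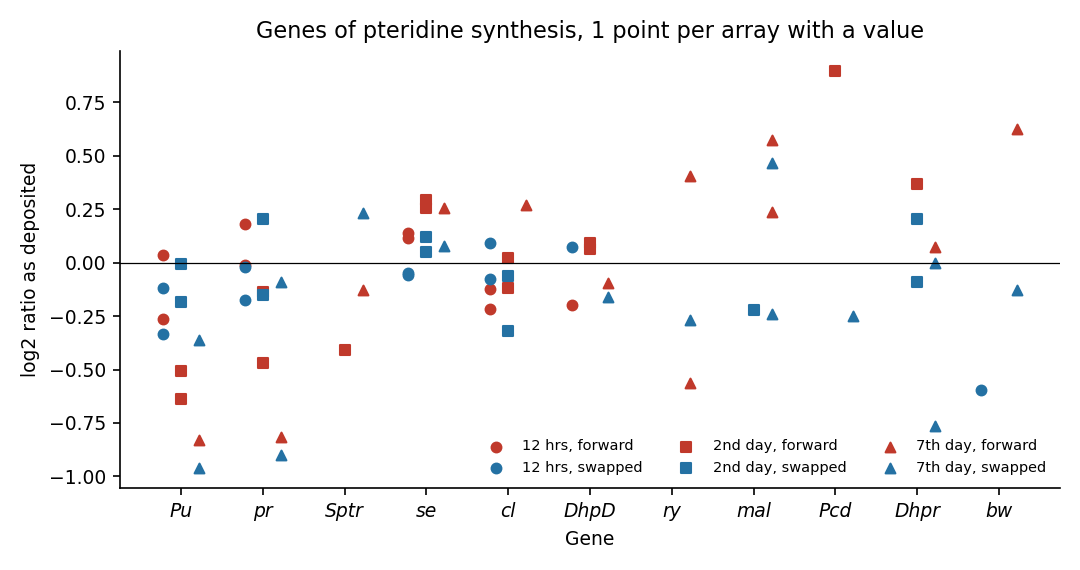
Deposited log2 ratios of the 11 pteridine genes on the array, 1 point per array with a value, coloured by dye orientation and with a symbol for each time point; for cl the feature with more values is drawn. Pu lies at or below 0.04 on all its arrays, whereas se lies between -0.06 and 0.29.

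Lists of neighbouring functions were read in the same way. Genes listed for purine synthesis, not all of them on the branch to GTP, gave turned medians of 0.09, -0.27 and 0.22 at the 3 times. These rested on 3, 3 and 2 features, whose deposited medians were 0.15, -0.15 and -0.21, with 0 called in either. Genes of tetrahydrobiopterin-dependent hydroxylation and the monoamine pathways gave 0.16, -0.01 and 0.25 turned and 0.01, -0.19 and -0.42 as deposited over 5, 6 and 2 features, with 0 called. The ommochrome list, the other eye pigment class, had 1 feature measured at each time, at 0.30, -0.01 and 0.31 turned and -0.16, -0.04 and -0.05 as deposited. The pigment granule list had 3, 3 and 1, at medians of -0.03, -0.02 and 0.42 turned and 0.18, -0.05 and 0.37 as deposited, and 0 features of these last lists passed the threshold. The purine and monoamine medians of the 7th day changed sign with the reading. So did the ommochrome values of 12 hrs and the 7th day and the pigment granule median of 12 hrs.

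Markers of head cell types were set beside Pu and pr, first as deposited. On the 7th day the 8 photoreceptor features had a median of -0.48 and the 3 retinal pigment cell features one of -0.17, against -0.13 over all features. On the 2nd day these medians were -0.08 and -0.51, over 9 and 3 features, against -0.10. Head fat body features lay lower still, with medians of -0.72 over 6 features (2nd day) and -1.05 over 3 (7th day). Of those 3, 2 passed the threshold, beside 0.626% of all features called lower. Once arrays were centred, 0 of all features passed at that time, these 3 included, so that loss was not particular to fat body markers. Neuron and glia markers had 2 and 1 features on the 7th day, with medians of -0.34 and -0.55, and muscle markers had 4, at -0.18. Medians at 12 hrs lay between -0.14 and 0.02 for these 6 lists. Turned, 0 markers passed at any time, and the medians of the 7th day were positive, at 0.18 for photoreceptor, 0.13 for retinal pigment cell, 0.47 for fat body, 0.23 for neuron, 0.27 for glia and 0.20 for muscle features, against 0.16 over all features. The sign of these medians thus depended on the reading. The part of these cell types in the ratios of Pu and pr was not tested.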

How the data were processed

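The values are normalized log2 ratios deposited by the authors, who scanned the arrays with GenePix, normalized by ratio in Acuity and removed spots that were dim, saturated, flagged or close to background. Their scale is log2 by range, their centring was left as deposited, and the direction of the swapped arrays is not known. Feature medians of the arrays, by time point and replicate, were 0.16, 0.00, -0.09, 0.00; -0.14, -0.20, 0.00, -0.04; 0.04, 0.13, -0.04 and -0.64. All 12 columns were mapped to samples; arrays of NF against NF are not analysed here. The number of arrays limits the precision.

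The 2 spots of a feature were averaged. A feature entered, where measured on 3 or more of 4 arrays of a time point, limma (version 3.58.1, R 4.3.3), 2-sided, with Benjamini-Hochberg adjustment over all features tested and a threshold of 0.05. Time points were contrasted, and averaged, in 1 fit over 12 arrays. The 7th day means of Pu and pr drop the array without a value. Sign-flip tests were exact (scipy 1.17.1), and correlations used 100000 permutations, or all of them under 10 arrays. Local medians were taken over the 40 features nearest in number, dropping those without a value. Positions on the slide were not used. Of 13824 features 7558 had 1 gene symbol, and names were updated by gene ID through the RefSeq annotation; no coordinates are given, since no build is named for the array. Named genes are both members, every pteridine gene measured on at least 3 of 4 arrays at a time point, and the 3 features most like each member. The fits were tested on simulated data. The members, lists and tests were chosen with earlier results of these data known. Alternatives were the other reading, centring, scaling, local medians, a dye coefficient, forward arrays alone, leaving out each array, a replicate block, means per gene, 1 fit for all arrays, an unmoderated test and other limits on the number of arrays.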

Additional observations from a re-analysis of the deposited data

How the results depend on the processing

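The direction of both genes depended on how the swapped arrays were read. As deposited, the turned means of Pu became -0.17 at 12 hrs and -0.72 on the 7th day, with contrasts of -0.55 (7th day minus 12 hrs) and -0.38 (7th minus 2nd day) and a mean over time points of -0.41, which passed the threshold. Those of pr became -0.007 at 12 hrs and -0.60 on the 7th day, with -0.46 for the 7th minus the 2nd day. In the turned reading, centring gave Pu -0.0079 at 12 hrs, -0.0765 on the 7th day and -0.069 for the 7th day minus 12 hrs, and gave pr -0.18 on the 7th day and -0.093 for the 7th minus the 2nd day. Scaling gave -0.017 for Pu at 12 hrs and -0.077 for pr on the 7th day. Subtracting local medians gave Pu -0.060 at 12 hrs and -0.030 on the 7th day, and pr -0.12, 0.001 and -0.14 at the 3 times, with 0.12 for the 2nd day minus 12 hrs and -0.15 for the 7th minus the 2nd day; as deposited it gave pr 0.037 at 12 hrs. A dye coefficient gave -0.085 for Pu and -0.16 for pr on the 7th day, and took Pu on the 2nd day past the threshold at the unchanged means of -0.24 turned and -0.33 as deposited. Forward arrays alone gave Pu -0.11 at 12 hrs, -0.20 centred and -0.17 with local medians, and -0.57 and -0.40 centred on the 2nd day, both past the threshold; pr with local medians was -0.08 at 12 hrs. Forward minus swapped for Pu, centred, was -0.016 at 12 hrs and -0.32, no longer past the threshold, on the 2nd day. With local medians the turned sign-flip means of Pu minus pr and of se were 0.029 and -0.011, and r between Pu and pr was 0.491 turned and 0.561 as deposited. In each of these cases the cause was not tested. Combinations of settings, the tests of se and of Pu minus pr, and the sign-flip test on local values were chosen after seeing the data.

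Counts of features past the threshold moved more. At 12 hrs forward arrays called 107, 108 centred and 13 with local medians. On the 2nd day they called 2022, 1502 and 469, while a dye coefficient called 976 turned and 1541 as deposited. As deposited 1 feature was called by the 2nd day and 29 by the 7th, with 0 at both times after centring or local medians, and 9 with a dye coefficient on the 7th day. On the 7th day 1 was called when averaged per gene and 1 in a fit over 12 arrays. The mean over time points called 39 as deposited, and 1 each with centring and local medians when turned.

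Leaving out each array in turn gave ranges. Turned, Pu ran from -0.036 to 0.16 at 12 hrs, from -0.38 to -0.11 on the 2nd day, from -0.24 to 0.66 on the 7th day, from -0.29 to 0.60 for the 7th day minus 12 hrs, from 0.00375 to 0.90 for the 7th minus the 2nd day and from -0.14 to 0.16 for the mean. Turned, pr ran from -0.27 to -0.0645 on the 2nd day, from -0.36 to 0.50 on the 7th day, from -0.45 to 0.40 and from -0.20 to 0.66 for those contrasts and from -0.15 to 0.14 for the mean. As deposited, the mean of Pu ran from -0.47 to -0.37 and that of pr from -0.33 to -0.20, and pr from -0.070 to 0.0495 at 12 hrs; the 2nd day gave pr -0.25 to -0.03. Numbers of features called ran from 0 to 61, 0 to 65 and 0 to 31 at the 3 times and from 0 to 96 for the mean when turned, and from 0 to 9, 0 to 114, 6 to 93 and 8 to 230 as deposited.

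The replicate number was also fitted as a block, although nothing in the labels pairs same-numbered arrays and their deviations correlated at -0.05 to 0.20 turned, above 0.1 for 5 of 12 pairs, and at -0.02 to 0.29 as deposited, for 8 of 12. The block gave -0.03 for the turned mean of Pu and -0.41 as deposited (adjusted p = 0.0321), and 0.04 and -0.56 for its 7th day minus 12 hrs; it changed no call of Pu or pr. The mean over time points as deposited then called 38 features lower and 1 higher, against 39 and 0, and the 7th day minus 12 hrs called 10 lower, against 15.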
